A study of Chlorocebus aethiops with 8 samples.

Results

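Probe sets for 6 genes were examined: the chromatin protein genes HMGA1 and HMGA2, the mRNA-binding protein genes IGF2BP1, IGF2BP2 and IGF2BP3, and LIN28B. They were all probe sets annotated with exactly 1 of these symbols, 14 of the 52865 on the array. HMGA2 was selected on its polysomal signal under RHA siRNA in these same arrays. Its polysomal values and every difference built on them are therefore given as a description, with no test. The other genes were chosen by name, as relatives of HMGA2 or because their proteins are known partners of RNA helicase A (RHA).

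The RNA came from COS cells, a kidney line of the African green monkey that expresses the large T antigen of a polyomavirus, and was read on arrays designed for the rhesus macaque, a related species. Cells received either scrambled siRNAs or a pair of siRNAs against RHA, the product of DHX9, at 0.5 nM in 2 rounds. All groups alike were kept 4 h without serum after transfection and then 24 h in medium with 10% serum. Their target sites in the human RHA coding region ran from nucleotide 2701 to 2721 and from 2784 to 2803. The 4 groups, of 2 arrays each, were cytoplasmic RNA and polysomal RNA (mRNA carrying several ribosomes, taken from sucrose gradients) under either siRNA. The labels give a replicate number to each array, and the 4 arrays of a number are called set 1 and set 2 here. Nothing says whether the sets were grown separately, so the spread behind each p-value is that between arrays and may be technical.

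HMGA1 and HMGA2 are small proteins whose AT-hook motifs bind the minor groove of AT-rich DNA. They are abundant in embryonic and in many transformed cells. HMGA2, LIN28B and the IGF2BP mRNAs are well-known targets of the let-7 microRNAs, LIN28B in turn blocks the maturation of let-7, and HMGA2 promotes transcription of IGF2BP2. IGF2BP1, IGF2BP2 and IGF2BP3 bind mRNAs and govern their stability, place and translation. RHA unwinds structured RNA, is found with IGF2BP1 in complexes that stabilise mRNA, and has been described as a cofactor of LIN28 in the translation of LIN28-bound mRNAs.

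The deposited value of a probe set is its intensity, on a linear scale. Each array received 25 ng of RNA, so a signal is relative to the RNA of its fraction, and fewer cells with a transcript cannot be told apart from less transcript per cell. Median intensity was 19.3 to 20.8 on all 8 arrays. A probe set was tested where its mean log2 intensity over all arrays was above the median of all probe sets that are not controls, 4.32 (an intensity of 19.9). This kept 26383 probe sets and 8 of the 14 described here. The bright probe set of DHX9 itself was lower under RHA siRNA within each set. It read 244 and 342 in the cytoplasmic controls (set 1 first) against 130 and 254. In the polysomal controls it read 359 and 477, against 97.2 and 269. Its other 3 probe sets lay under the limit. The difference of the bright probe set over both fractions did not pass the test (limma, adjusted p = 1.00, or 0.162 with the replicate number as a block). The sets differed from each other, by an adjusted p under 0.05 in limma, in 13535 of the 26383 probe sets tested (51.3%), so every difference below is given within each set as well. Of markers fixed for several tissues, 9 of 10 annotated fibroblast genes and 8 of 14 kidney tubule genes lay above the limit. So did 4 of 7 leukocyte genes and 1 of 5 hepatocyte genes. Over all annotated genes 10106 of 14133 did, so no cell type is read from these counts. The tubule genes PAX2, LRP2, CUBN and UMOD were under the limit. The summed tubule marker signal ran from 2422 to 2965 in the cytoplasmic controls and from 1880.1 to 2343 under RHA siRNA. AQP1, the brightest of these genes, had a cytoplasmic log2 difference of -0.65 (-0.83 and -0.47 in the sets). Over the 8 tubule genes tested the median was -0.05, with 4 above 0. In polysomes the tubule sums overlapped between siRNAs (2313.5 to 3131 in the controls, 2240 to 2424.5 under RHA siRNA). The other marker lists overlapped between siRNAs in both fractions. What this adds to the differences below was not tested.

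Signals of the 6 genes covered a wide range. The brighter HMGA1 probe set outshone 96.3% of the probe sets that are not controls. The brightest of HMGA2, IGF2BP1 and IGF2BP2 lay just above the middle, at 64.0%, 61.7% and 56.2%, and that of IGF2BP3 at 74.1%. LIN28B had no probe set above the limit, and its brighter one outshone 26.1%. Nearest to the limit were IGF2BP2 above it (mean log2 4.59) and an IGF2BP3 probe set, MmugDNA.36832.1.S1_at, under it (3.96). The arrays give no detection call, so a dim value may hold little besides background.

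**Figure D1:**
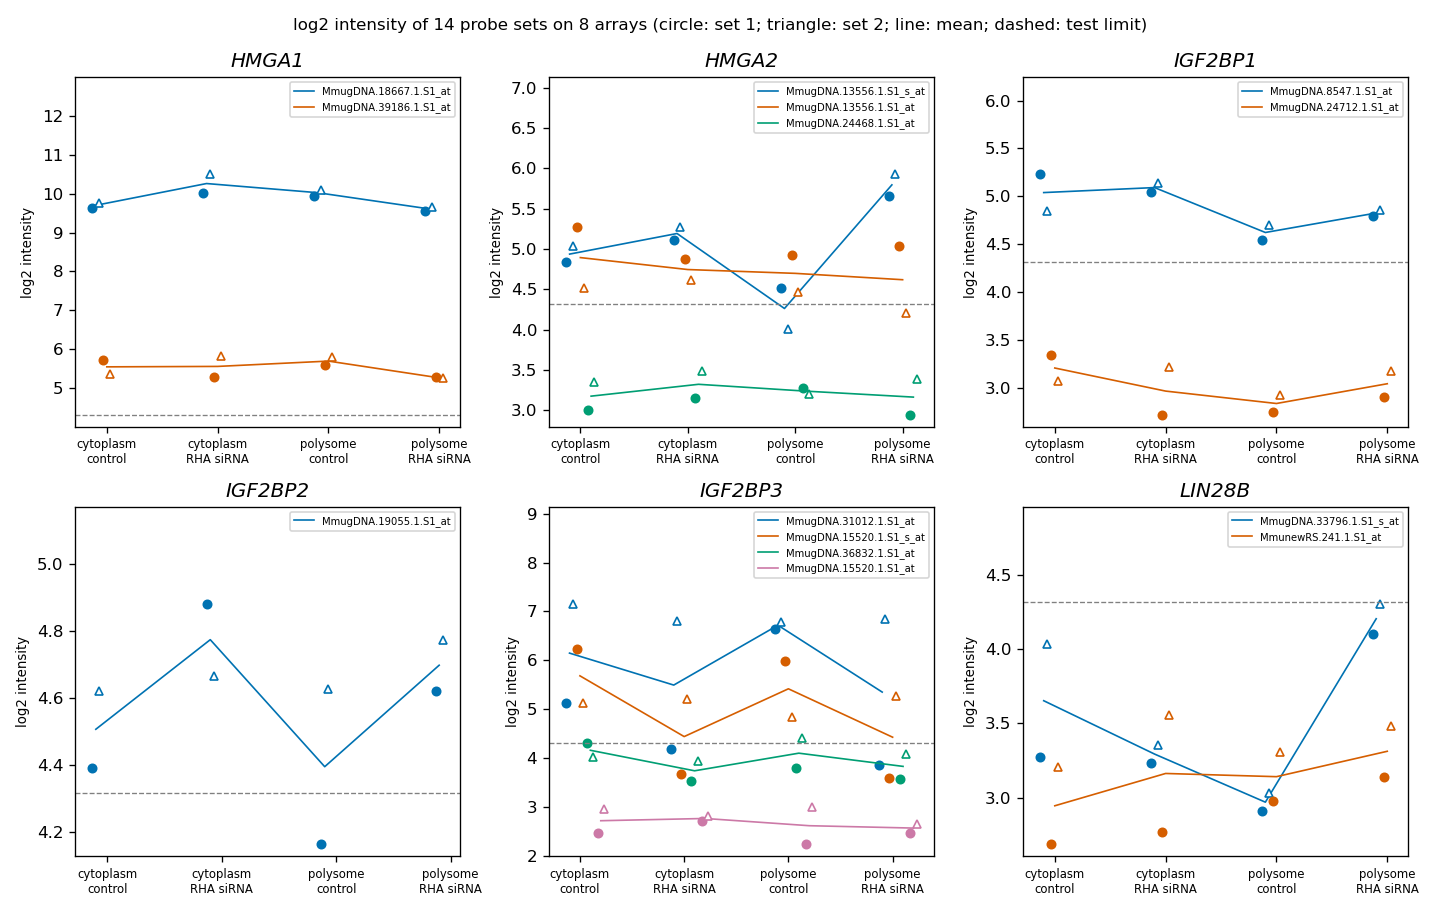
Log2 intensity of all 14 probe sets, by gene, in cytoplasmic and polysomal RNA under control and RHA siRNA. Circles are set 1, triangles set 2, lines join group means, and the dashed line is the limit of 4.32 for testing. HMGA2 probe set MmugDNA.13556.1.S1_s_at and LIN28B probe set MmugDNA.33796.1.S1_s_at are highest on the polysomal RHA siRNA arrays, and 2 IGF2BP3 probe sets are low under RHA siRNA in set 1.

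The 6 tested probe sets of HMGA1 and the IGF2BP genes were not called in any of the 6 comparisons made, and the 2 of HMGA2 were not called in cytoplasm, the comparison its selection did not use. The test was limma over 4 groups, with Benjamini-Hochberg adjustment over all 26383 probe sets and a threshold of 0.05. That fit called 0 probe sets of any gene (0%) in each comparison, with 46 to 540 at an unadjusted p under 0.05. When the model also held the replicate number (the replicate block), limma called 2 over both fractions (0.00758%), neither of them of these genes, and 0 (0%) in the other 5 comparisons, with 1048 to 3174 at an unadjusted p under 0.05. A design of 2 arrays against 2 cannot give an exact permutation p under 0.333. The siRNA and fraction differences that follow therefore either did not pass the test or, for LIN28B and the polysomal values of HMGA2, are given with none.

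HMGA1 was the clearest measurement of the 6 genes and had opposite siRNA differences in the 2 fractions. In cytoplasmic RNA its bright probe set, MmugDNA.18667.1.S1_at, read 796 and 868 in the controls, and RHA siRNA arrays gave 1034 and 1453. Polysomal controls read 986 and 1100.3, and the polysomal RHA siRNA arrays 756 and 809. The RHA siRNA arrays were thus the higher ones in cytoplasm and the lower ones in polysomes, with no overlap between the siRNAs in either fraction. In each fraction, 2 arrays against 2 cannot give an exact permutation p under 0.333. The share of all probe sets without such overlap was not counted.

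As log2 intensity, cytoplasmic HMGA1 averaged 9.70 ± 0.09 under control and 10.26 ± 0.35 under RHA siRNA (SD, n = 2). The polysomal averages were 10.02 ± 0.11 under control and 9.61 ± 0.07 under RHA siRNA (SD, n = 2). From the highest down, the order was cytoplasm under RHA siRNA, control polysomes, control cytoplasm, polysomes under RHA siRNA. Only the step between control polysomes and control cytoplasm was larger than the SDs on both sides of it. The cytoplasmic difference was 0.56 (SE 0.32), with 0.38 in set 1 and 0.74 in set 2. The polysomal difference was -0.41 (SE 0.32), with -0.38 and -0.44 in the sets.

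The change in polysome loading is the polysomal siRNA difference minus the cytoplasmic one. For HMGA1 it was -0.97 on the log2 scale (SE 0.45), with -0.76 in set 1 and -1.19 in set 2. Put as the ratio of polysomal to cytoplasmic signal, HMGA1 had a log2 ratio of 0.33 under control siRNA (0.31 and 0.34 in the sets) and of -0.65 under RHA siRNA (-0.45 and -0.84). Limma's adjusted p for this change was 1.00, or 0.967 with the replicate block (0.818 to 1.00 over its alternatives), at unadjusted p-values of 0.0719 and 0.0186. Being above 0 in cytoplasm and below 0 in polysomes in both sets, a pattern put together after the HMGA1 values were seen, was shared by 4.89% of all probe sets tested. A ratio of polysomal to cytoplasmic signal above 0 under control and below 0 under RHA siRNA, in both sets, was found for 7.19%.

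The second HMGA1 probe set, MmugDNA.39186.1.S1_at, was dimmer and showed the polysomal part alone. Its polysomal values were 48.2 and 55.8 in the controls and 38.8 and 38.1 under RHA siRNA, a log2 difference of -0.43 (SE 0.34; -0.31 and -0.55 in the sets). In cytoplasm it read 53.0 and 41.3 in the controls and 39.3 and 56.6 under RHA siRNA, so that the sets went opposite ways (-0.43 and 0.45). Its loading change was 0.12 in set 1 and -1.004 in set 2. Averaged over both probe sets, the cytoplasmic difference of HMGA1 was 0.29 in place of 0.56, and its loading change -0.71 in place of -0.97. The 2 probe sets of HMGA1 thus differed on the cytoplasmic side in set 1.

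The measured 3' bias of the arrays moved with siRNA in set 1. The mean log2 difference between the 3' and the 5' probe sets of 3 control transcripts present in the cells (actin, EF1A and GAPDH) differed between RHA and control siRNA by -1.07 in cytoplasm and 1.17 in polysomes of set 1, against -0.27 and -0.35 in set 2. The corresponding loading term was 2.25 in set 1 and -0.08 in set 2. The part of 3' bias in the HMGA1 values was not tested.

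HMGA2 was read by 3 probe sets, of which 1 carries the polysomal gain that led to its selection. Probe set MmugDNA.13556.1.S1_s_at read 22.9 and 16.1 in the polysomal controls and 50.6 and 61.0 under RHA siRNA. Cytoplasmic controls read 28.5 and 32.9, and cytoplasmic RHA siRNA arrays 34.5 and 38.7. The polysomal RHA siRNA arrays were therefore the highest of all 8 and the polysomal controls the lowest.

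The cytoplasmic log2 mean of this HMGA2 probe set was 4.94 ± 0.15 under control and 5.19 ± 0.12 under RHA siRNA (SD, n = 2). In polysomes it was 4.26 ± 0.36 under control and 5.80 ± 0.19 under RHA siRNA (SD, n = 2). The polysomal control mean lies under the limit for testing, which makes the size of the difference uncertain. That difference was 1.54 (1.14 in set 1 and 1.93 in set 2), or 1.02 with 16 added to each intensity before the log. The order ran from polysomes under RHA siRNA through cytoplasm under RHA siRNA and control cytoplasm to control polysomes. The step within cytoplasm exceeded the SDs on both sides. The other steps run to polysomal means, on which the gene was selected, so they are not set against the SDs.

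In cytoplasmic RNA, which the choice of HMGA2 did not use, the difference was 0.26 (SE 0.33), with 0.28 and 0.23 in the sets. Limma's adjusted p was 1.00 there, or 0.742 with the replicate block. The loading change of HMGA2 was 1.28 (0.87 in set 1 and 1.69 in set 2), and it shares the polysomal arrays on which the gene was selected. Its log2 ratio of polysomal to cytoplasmic signal was -0.68 under control siRNA (-0.32 and -1.04 in the sets) and 0.60 under RHA siRNA (0.55 and 0.66). The brightest probe sets of HMGA1 and HMGA2 thus lay on opposite sides of 0 in loading change, in both sets. HMGA2 was selected on its polysomal values, so nothing is read from this contrast. The second tested probe set of each gene changed sign between the sets, with 0.12 and -1.004 for HMGA1 and 0.51 and -0.37 for HMGA2.

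The other probe sets of HMGA2 did not show the polysomal gain. MmugDNA.13556.1.S1_at, from the same source sequence by its name but without the suffix for probes shared between transcripts, read 30.5 and 22.1 in the polysomal controls and 32.8 and 18.4 under RHA siRNA. Its polysomal difference was -0.08 (SE 0.45; 0.11 and -0.26 in the sets) and its cytoplasmic difference -0.15 (-0.40 and 0.11). The third, MmugDNA.24468.1.S1_at, was too dim to be tested, with 7.69 to 11.2 on all arrays. Averaged over its 3 probe sets, HMGA2 had a polysomal difference of 0.46 and a loading change of 0.38 in place of 1.54 and 1.28.

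**Figure D2:**
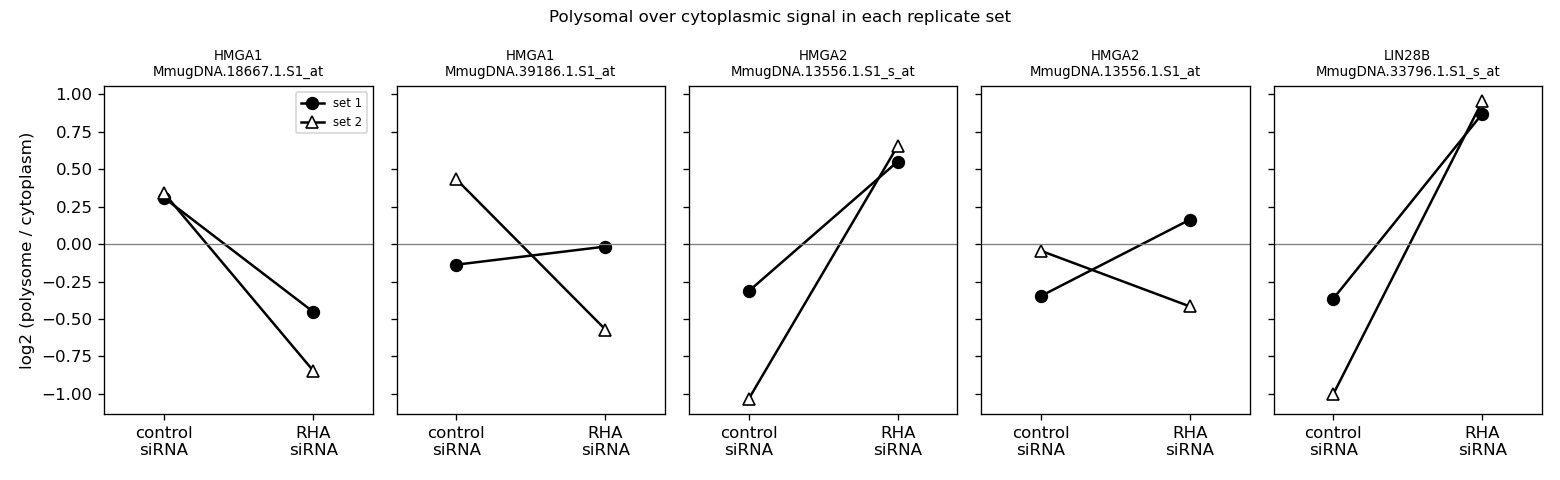
Log2 ratio of polysomal to cytoplasmic signal under control and RHA siRNA, with a line for each replicate set (circles set 1, triangles set 2), for 5 probe sets of HMGA1, HMGA2 and LIN28B. The bright HMGA1 probe set went from 0.33 to -0.65 on average, HMGA2 MmugDNA.13556.1.S1_s_at from -0.68 to 0.60, and LIN28B MmugDNA.33796.1.S1_s_at from -0.68 to 0.91. The second probe sets of HMGA1 and HMGA2 went different ways in the 2 sets.

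LIN28B, the let-7 antagonist, had the same order at its extremes as HMGA2, at dimmer signals. Probe set MmugDNA.33796.1.S1_s_at read 7.51 and 8.16 in the polysomal controls and 17.2 and 19.8 under RHA siRNA. In cytoplasm it read 9.67 and 16.4 in the controls and 9.40 and 10.2 under RHA siRNA. The polysomal RHA siRNA arrays were again the highest of the 8 and the polysomal controls the lowest, and all 8 values lay under the limit of 19.9. From the highest down, the log2 means were 4.21 ± 0.14 in polysomes under RHA siRNA, 3.65 ± 0.54 in control cytoplasm, 3.29 ± 0.09 in cytoplasm under RHA siRNA and 2.97 ± 0.09 in control polysomes (SD, n = 2). The step within cytoplasm did not exceed the SDs.

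The polysomal log2 difference of this LIN28B probe set was 1.24, with 1.20 in set 1 and 1.28 in set 2. Its cytoplasmic difference was -0.36 (-0.04 and -0.68), or 0.02 without the control array of set 2, and its loading change 1.60 (1.24 and 1.96). No test was made, and at this brightness the size depends on the scale: with 16 added to each intensity before the log, the polysomal difference was 0.53 and the loading change 0.69. The second LIN28B probe set, MmunewRS.241.1.S1_at, read 6.43 to 11.8 over all arrays. Its polysomal difference was 0.17 (0.16 and 0.18) and its loading change -0.05 (0.08 and -0.17).

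Arrays of polysomal RNA under RHA siRNA that both exceed all 6 others were found for 2 of the 14 probe sets, those of HMGA2 and LIN28B just described, and for 1 of the 8 tested. Among all probe sets tested this held for 1.57%, and for 1.5% of the 52766 that are not controls. The pattern was put together from HMGA2, so nothing is read from its count. A ratio of polysomal to cytoplasmic signal below 0 under control and above 0 under RHA siRNA, in both sets, was found for the same 2 probe sets, for 5.5% of all tested and for 6.88% of those that are not controls. An siRNA difference below 0 in cytoplasm and above 0 in polysomes in both sets, which LIN28B MmugDNA.33796.1.S1_s_at had, was found for 6.08% of the latter. Both probe sets carry the suffix for shared probes. Of the tested probe sets with that suffix 1.24% had the pattern, against 1.62% of those without a suffix letter. Once the mean of each set was removed, HMGA2 and LIN28B had a Pearson r of 0.85 over the 8 arrays, which share the same 4 groups; this pair was picked after the values were seen.

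IGF2BP3, which binds and stabilises many growth-related mRNAs, showed a difference between the sets. Probe set MmugDNA.15520.1.S1_s_at read 75.5 in the cytoplasmic control and 63.6 in the polysomal control of set 1, and 12.7 and 12.1 under RHA siRNA. In set 2 the same arrays read 34.9 and 28.7 in the controls and 37.1 and 38.3 under RHA siRNA. The 2 RHA siRNA arrays of set 1 were thus the lowest of the 8 and the 2 controls of set 1 the highest.

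The brightest IGF2BP3 probe set, MmugDNA.31012.1.S1_at, read 99.9 in the polysomal control of set 1 and 14.5 under RHA siRNA, against 111 and 115 in set 2. In cytoplasm it read 35.1 and 18.2 in set 1, against 143 and 112 in set 2. Both probe sets were lower under RHA siRNA than under control siRNA in both fractions of set 1. In set 2 only the cytoplasmic signal of MmugDNA.31012.1.S1_at was lower, at 112 against 143. The cytoplasmic control of this probe set was itself low in set 1, at 35.1. Over both sets this probe set was higher in set 2, by 1.94 on the log2 scale, a difference that limma called (adjusted p = 0.00584).

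Log2 differences of MmugDNA.15520.1.S1_s_at were -2.57 in cytoplasm and -2.40 in polysomes of set 1, and 0.09 and 0.42 in set 2. A loss of at least 2-fold in both fractions of set 1 was shared by 0.425% of tested probe sets, and this rule was set after the values were seen. For MmugDNA.31012.1.S1_at the differences were -0.95 and -2.78 in set 1, and -0.36 and 0.05 in set 2. Pooled over the sets, the brightest probe set averaged 6.15 ± 1.43 under control and 5.49 ± 1.85 under RHA siRNA in cytoplasm, and 6.72 ± 0.11 and 5.35 ± 2.11 in polysomes (log2, SD, n = 2). The pooled siRNA differences of -0.65 and -1.37 (SE 1.28 each) were smaller than the SD under RHA siRNA in the same fraction. With the replicate block the SE was 0.59, and the polysomal difference had an unadjusted p of 0.0490 and an adjusted p of 0.973 in limma. Leaving out 1 array moved the cytoplasmic difference to between -1.96 and 0.66 and the polysomal one to between -2.86 and 0.12.

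Whether the siRNA effect differed between the sets was tested as an interaction term in limma, chosen after these values were seen. Each siRNA within a set has only a cytoplasmic and a polysomal array, so the fractions stand in for repeats. The SEs and p-values of this term thus measure disagreement between fractions, not the spread between repeated transfections. The interaction of MmugDNA.15520.1.S1_s_at was 2.74 (SE 0.31), rank 18 in size of 26383, with an adjusted p of 0.204. That of MmugDNA.31012.1.S1_at was 1.71 (SE 0.60), with an adjusted p of 0.397, and 0 of 26383 probe sets (0%) were called. The siRNA difference of DHX9 over both fractions was -1.40 in set 1 and -0.63 in set 2, an interaction of 0.77 (SE 0.40, adjusted p in limma = 0.559). The 3' bias of the control transcripts also moved in set 1, as given above; in the mean of both fractions it moved by 0.05 in set 1 and by -0.31 in set 2.

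Probe set MmugDNA.36832.1.S1_at of IGF2BP3 was under the limit, with 11.6 to 21.2 on all arrays and log2 differences of -0.42 in cytoplasm (-0.76 and -0.08 in the sets) and -0.27 in polysomes (-0.22 and -0.32). The fourth, MmugDNA.15520.1.S1_at, at 4.70 to 7.99, had differences of 0.05 and -0.05. The loading change of IGF2BP3 was -0.71 by the brightest probe set (-1.83 and 0.40) and 0.25 by MmugDNA.15520.1.S1_s_at (0.18 and 0.33), opposite in sign.

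**Figure D3:**
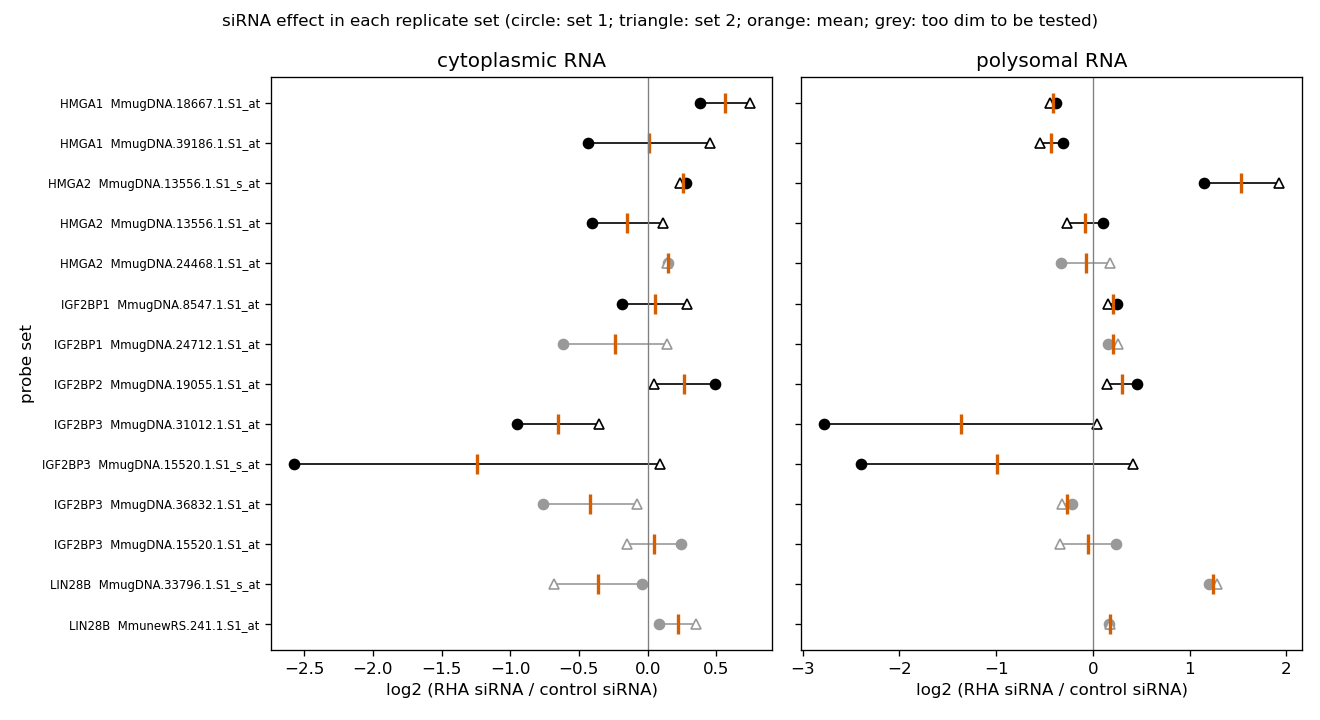
Log2 ratio of RHA siRNA to control siRNA for the 14 probe sets in cytoplasmic RNA (left) and polysomal RNA (right), with set 1 as circles, set 2 as triangles and the mean as an orange bar; grey marks probe sets too dim to be tested. Both HMGA1 probe sets lie below 0 in polysomes in both sets, and the lines of the 2 brightest IGF2BP3 probe sets reach from below -2 in set 1 to above 0 in set 2 in polysomes.

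IGF2BP1, the family member known to bind the MYC and beta-actin mRNAs, showed small differences. Probe set MmugDNA.8547.1.S1_at read 37.6 and 28.8 in the cytoplasmic controls and 33.1 and 35.2 under RHA siRNA, and 23.3 and 26.1 in the polysomal controls and 27.8 and 29.0 under RHA siRNA. The polysomal arrays did not overlap between siRNAs, while the cytoplasmic arrays did. Here too the share of all probe sets without overlap was not counted. Its log2 differences were 0.05 in cytoplasm (SE 0.31; -0.19 and 0.29) and 0.20 in polysomes (SE 0.31; 0.25 and 0.15), and its loading change was 0.15 (0.44 and -0.14). Under control siRNA, IGF2BP1 was lower in polysomes than in cytoplasm in both sets, by a log2 ratio of -0.42 (-0.69 and -0.14). From the highest down, the log2 means were 5.09 ± 0.06 and 5.04 ± 0.27 in cytoplasm under RHA and control siRNA and 4.83 ± 0.05 and 4.62 ± 0.12 in polysomes (SD, n = 2). Only the step between the siRNAs in polysomes exceeded the SDs. The other IGF2BP1 probe set was too dim to be tested, at 6.60 to 10.1.

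IGF2BP2, which HMGA2 is known to activate, was read by 1 probe set close to the limit. MmugDNA.19055.1.S1_at read 21.02 and 24.6 in the cytoplasmic controls and 29.5 and 25.4 under RHA siRNA, and 17.9 and 24.7 in the polysomal controls and 24.7 and 27.4 under RHA siRNA. Its log2 difference was 0.27 in cytoplasm (SE 0.33, with 0.49 and 0.05 in the sets). In polysomes it was 0.30 (SE 0.33, with 0.46 and 0.15). The loading change was 0.04 (-0.03 and 0.10). The log2 means ran from 4.78 ± 0.15 in cytoplasm and 4.70 ± 0.11 in polysomes under RHA siRNA to 4.51 ± 0.16 and 4.40 ± 0.33 under control siRNA (SD, n = 2). Only the step from polysomes under RHA siRNA to control cytoplasm exceeded the SDs of its neighbours, and it crosses fractions. Within polysomes the siRNA difference of 0.30 was smaller than the control SD of 0.33. Within cytoplasm the difference of 0.27 was larger than both SDs. Adjusted p-values of IGF2BP1 and IGF2BP2 in limma were 1.00 in both fractions, and 0.703 or more with the replicate block.

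Over all 14 probe sets, the siRNA difference in cytoplasm was above 0 in both sets for 5 and below 0 in both for 3, of which 3 and 1 were tested. Of all probe sets tested, 27.3% and 23.6% were above and below 0 in both sets. In polysomes the counts were 6 and 3 (3 and 2 among those tested), against 27.9% and 25.6%. For the loading change they were 4 and 2 (2 and 1 among those tested), against 26.1% and 24%. Polysomal over cytoplasmic signal under control siRNA was above 0 in both sets for 2 and below 0 for 6 (1 and 4 among those tested), against 30.5% and 20.2%. All of these counts except those in cytoplasm include polysomal values of HMGA2, on which it was selected.

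The median over the 6 genes, each by its brightest probe set and LIN28B included though it was too dim to be tested, was 0.15 in cytoplasm (0.12 and 0.14 in the sets), against 0.06 over 10106 genes. In polysomes the median was 0.25 (0.36 and 0.15) against -0.0015, and for the loading change 0.09 (0.20 and 0.25) against -0.03, with -0.06 to 0.48 when 1 array was left out. Under control siRNA the median ratio of polysomes to cytoplasm was -0.26 (-0.27 and -0.25) against 0.08, and under RHA siRNA it was -0.11 (-0.26 and 0.07) against 0.02. All of these medians except that in cytoplasm include polysomal values of HMGA2, on which it was selected.

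**Figure D4:**
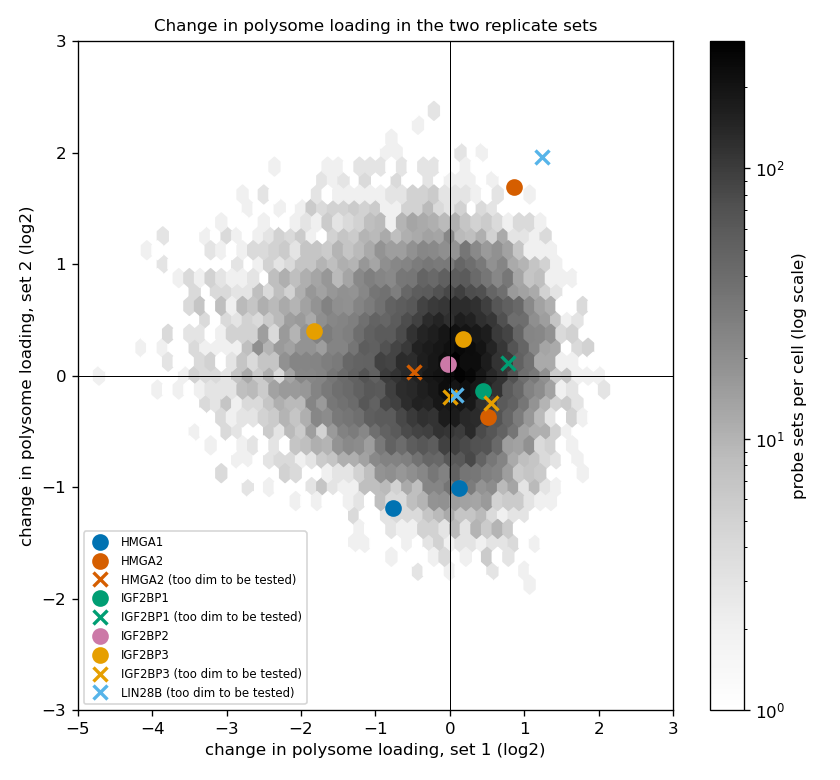
Change in polysome loading (log2) in set 1 (x axis) and set 2 (y axis), with the 26383 tested probe sets as grey cells shaded by their number on a log scale and the 14 probe sets described here in colour; crosses were too dim to be tested, and 9 probe sets lie outside the axes. HMGA2 MmugDNA.13556.1.S1_s_at (0.87 and 1.69) and LIN28B MmugDNA.33796.1.S1_s_at (1.24 and 1.96) lie at the upper right, and the bright HMGA1 probe set (-0.76 and -1.19) at the lower left.

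The genes whose values followed each member most closely were named by Pearson's r over 8 arrays after the mean of each set was removed, among 10105 other genes. The 8 arrays share 4 groups, and the values are a description. HMGA1 was followed by LOC696958 (r = 0.960), RFNG (0.957), a glycosyltransferase that modifies Notch, and GALK1 (0.954), a galactokinase. Nearest to HMGA2 were REPS2 (0.981), B3GNT6 (0.978) and CGRRF1 (0.945). IGF2BP1 was nearest to SLA2 (0.993), ADAMTS13 (0.957) and MTNR1B (0.957), and IGF2BP2 to UXT (0.990), C13H2orf73 (0.978) and BLOC1S1 (0.978). IGF2BP3 was nearest to TCF7L1 (0.970), a transcription factor of the Wnt pathway, the histone variant gene MACROH2A1 (0.959) and the matrix proteoglycan gene VCAN (0.956).

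Among other high mobility group genes, 13 of 15 listed were tested, and limma called 0 in either direction in any of the siRNA comparisons, with or without the replicate block. Their median difference was 0.37 in cytoplasm (0.60 and 0.00 in the sets) and 0.00 in polysomes, and that of the loading change -0.35 (-0.44 and 0.01). HMGN1, a nucleosome-binding protein gene, had 0.97 in cytoplasm (1.15 and 0.79) and 0.27 in polysomes (0.13 and 0.41). HMGB1, a DNA-bending protein gene, had -0.54 (-0.73 and -0.34) and -0.23 (-0.22 and -0.23). HMGB2 had 0.07 and 0.06, and HMGN4 -0.20 (-0.22 and -0.18) and -0.002.

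Further let-7 targets were tested for 22 of 32 listed genes, and 0 were called with or without the block. The median was 0.23 in cytoplasm (0.35 and -0.12 in the sets) and 0.12 in polysomes (0.03 and 0.19), and that of the loading change -0.08 (-0.25 and 0.44). Above and below 0 in both sets were 7 and 5 in cytoplasm, 11 and 2 in polysomes and 3 and 5 for the loading change, beside 27.3% and 23.6%, 27.9% and 25.6%, and 26.1% and 24% of all probe sets tested. NRAS, a small GTPase gene, had differences of 0.46 in cytoplasm (0.64 and 0.28) and 0.12 in polysomes (0.21 and 0.02). MYC, a growth-promoting transcription factor gene, had 0.44 (1.52 and -0.63) and 0.28 (0.54 and 0.01), and MYCN 0.02 and 0.13. CDK6, a kinase gene of the cell cycle, had -0.28 (0.42 and -0.97) and 0.01. The insulin receptor substrate gene IRS2 had 0.30 and 0.21, the homeobox gene PBX3 0.76 (1.74 and -0.22) and 0.53 (0.61 and 0.45), and the receptor gene TGFBR1 -0.34 and -0.18.

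For the let-7 and LIN28 processing pathway 17 of 23 genes were tested and 0 called with or without the block, with medians of 0.23 in cytoplasm (0.59 and -0.07 in the sets) and 0.16 in polysomes (0.17 and 0.05). DICER1, which cuts let-7 from its precursor, had -0.29 in cytoplasm (-0.33 and -0.24) and 0.05 in polysomes. TUT4, which adds the uridine tail that LIN28 directs to let-7 precursors, had -0.49 (-0.49 and -0.48) and -0.11 (-0.08 and -0.13). HNRNPA1, which binds let-7 precursors, had 0.49 and 0.37, with 1.08 and -0.34 in the sets in polysomes. RBM3 had 0.12 and 0.17, and SET -0.06 and 0.16.

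Known protein partners of the IGF2BPs were tested for 16 of 25 genes, with 0 called with or without the block and medians of 0.02 in cytoplasm (0.38 and -0.14 in the sets) and 0.02 in polysomes (-0.22 and -0.05). HNRNPU, SYNCRIP and YBX1 encode proteins found with IGF2BP1 and RHA. HNRNPU had a difference of 1.42 in cytoplasm, made of 2.73 in set 1 and 0.11 in set 2, and of -0.64 in polysomes (-1.09 and -0.19). SYNCRIP had 0.23 (0.61 and -0.15) and 0.42 (0.56 and 0.28), and YBX1 had 0.37 in both sets in cytoplasm and -0.32 and 0.62 in polysomes. MATR3, STAU1 and KHDRBS1 had cytoplasmic differences of -0.27, -0.02 and -0.13 and polysomal ones of -0.19, -0.28 and -0.13.

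Of mRNAs known to be bound by IGF2BPs, 16 of 23 were tested and 0 called with or without the block, with medians of 0.26 in cytoplasm (0.40 and 0.01 in the sets) and 0.14 in polysomes (0.07 and 0.12). IGF2, the growth factor mRNA after which the family is named, had -0.31 in cytoplasm (-0.66 and 0.03) and -0.40 in polysomes (-0.34 and -0.46). ENO1, a glycolytic enzyme, had 0.26 (0.27 and 0.24) and -0.44 (-0.62 and -0.25), and a loading change of -0.70 (-0.89 and -0.50), above 0 in cytoplasm and below 0 in polysomes like HMGA1. LDHA had 0.15 and 0.13, COX7B -0.19 and 0.00, and TPM1 0.05 and 0.08.

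Of mRNAs known to be bound by LIN28, 18 of 25 were tested and 0 called with or without the block, with medians of 0.12 in cytoplasm (0.40 and -0.13 in the sets) and 0.12 in polysomes (-0.0021 and 0.0087). The cyclin genes CCNA2 and CCNB1 had -0.04 and 0.01 in cytoplasm and 0.18 (0.35 and 0.01) and 0.32 (0.57 and 0.08) in polysomes. Their loading changes were 0.22 (0.24 and 0.21) and 0.31 (0.25 and 0.38). CDK1 had -0.20 and -0.02, the histone variant gene H2AZ1 -0.02 and 0.01, and the RNA-binding protein gene HNRNPF -0.33 (-0.41 and -0.24) and -0.22 (-0.19 and -0.24).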

How the data were processed

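RNA from 8 samples was measured on 1-colour arrays, from 25 ng of total RNA each. Intensity values as deposited are linear, 1 for each probe set, with similar medians on all arrays, and were taken as normalised by the authors. GCOS and RMA are the programs listed in the submitters' processing notes, without versions and without a stated role. Of 52865 probe sets, 24969 carried 1 gene symbol in the platform annotation, 361 several and 27535 none. Probe-level files and detection calls were not used here.

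Values were put on the log2 scale as deposited. The model was a linear fit with moderated variances (limma version 3.58.1, R version 4.3.3), tested two-sided over all 8 arrays, as 4 groups. A gene stands for its brightest probe set. Replicate numbers come from the sample titles. Deviations from group means correlated at 0.680 to 0.868 across the 6 pairs of groups, but with 2 arrays a group each correlation rests on 1 pair of numbers. Named genes are the members, the 4 brightest tested genes of each list, some fixed names and the 3 nearest patterns. Members and lists were chosen with earlier results of these data known. The fits were tested on simulated data. Alternatives were another filter, quantile normalization, an offset, each array left out, the replicate block and the mean of a gene's probe sets. The number of arrays limits the precision.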

Additional observations from a re-analysis of the deposited data

Results flagged for a closer look

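In 3 probe sets the ratio of polysomal to cytoplasmic signal lay on one side of 0 in both sets under control siRNA and on the other under RHA siRNA. They were HMGA1 MmugDNA.18667.1.S1_at, with a loading change of -0.97, HMGA2 MmugDNA.13556.1.S1_s_at, with 1.28, and LIN28B MmugDNA.33796.1.S1_s_at, with 1.60. They are 3 of the 14 probe sets; over all probe sets tested, 7.19% had the sides of HMGA1 and 5.5% those of HMGA2, and over all that are not controls 6.88% had those of HMGA2 and LIN28B. In HMGA1 and LIN28B the siRNA effect was also on opposite sides of 0 in the 2 fractions, in both sets. For LIN28B the cytoplasmic side of this was -0.04 in set 1, at signals under the limit for testing, and its pooled value went from -0.36 to 0.02 without the control array of set 2. The difference itself was tested by limma for HMGA1 and did not pass (adjusted p = 1.00). No test is given for HMGA2, which was selected on polysomal values, and none was made for LIN28B, which was too dim. No second probe set of these genes showed the same.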

How the results depend on the processing

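The labels share replicate numbers across the groups. The replicate block moved the count of called probe sets from 0 to 2 over both fractions, and to 33 when the cytoplasmic control array of set 1 was also left out (an alternative chosen after seeing the data). In the other 5 comparisons, and under the other alternatives, limma called 0. None of the tested probe sets of HMGA1 and the IGF2BP genes was called under any of 15 alternatives. The stricter filter on dim probe sets left HMGA1 as the only member tested, so HMGA2 and the IGF2BP genes have no value there. In the alternatives run, the sign of HMGA1 held in all comparisons but the mean of both fractions. That of HMGA2 held in cytoplasm, the comparison its selection did not use. Its second tested probe set, MmugDNA.13556.1.S1_at, had the opposite sign there (-0.15). The other comparisons share the polysomal arrays on which HMGA2 was selected, so nothing is read from its signs in them. The loading change of HMGA1 stayed between -1.22 and -0.71. Signs turned for IGF2BP1 in cytoplasm (-0.0089 with quantile normalization, -0.094 as the mean of its probe sets) and in loading (-0.095 with the block and without that control array), and for HMGA1 over both fractions (-0.068 as the mean of its probe sets). Leaving out 1 array gave ranges that cross 0. For HMGA1 the range was -0.049 to 0.20 over both fractions. For IGF2BP1 it was -0.14 to 0.25 in cytoplasm and -0.043 to 0.34 in loading. For IGF2BP2 it was -0.20 to 0.27 in loading, -0.34 to 0.12 for polysomes over cytoplasm under control siRNA and -0.18 to 0.031 under RHA siRNA. For IGF2BP3 it was -1.96 to 0.66 in cytoplasm, -2.86 to 0.12 in polysomes, -2.20 to 0.78 in loading, -0.44 to 1.58 for polysomes over cytoplasm under control siRNA and -1.63 to 1.35 under RHA siRNA. For LIN28B in cytoplasm it was -0.74 to 0.02. The cause was not tested. Dim signal limits LIN28B most, followed by IGF2BP2, IGF2BP1 and HMGA2 in the order of their brightest probe sets.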
